A study of Homo sapiens with 2 samples.

Results

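The baseline miRNA profile of Jurkat cells labelled control was described from the deposited table of small RNA sequencing. Its members were chosen by their deposited mean normalized count in the control group, which had to be at least 1, and were 1078 of the 1450 miRNAs listed (74.3%). The series sets 1 control sample beside 1 sample overexpressing the lncRNA PELATON, which the labels call lnc-CEBPB-13, to ask which miRNAs change with it, and only the control sample is described here. Jurkat is an established human line of leukemic T cells, given in the labels as of blood tissue and of control genotype. For Jurkat cells, the methods describe a control lentivirus followed by drug selection of a stable line, without naming the sequenced sample. PELATON is no miRNA and was not measured in the table, so the control label could not be checked against it. The values are called control because the sample description C1 names their column. The ratio in the table is headed C1 over S1, and the deposited means, read by the sample descriptions, run opposite to the direction the study's text gives for miR-10b-5p. If the descriptions of C1 and S1 were exchanged, all values below would be those of PELATON-overexpressing cells, which could not be settled from the files.

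The level of a miRNA is given as a normalized count, which is its read count divided by the size factor of its library. The deposited value is the mean of the group, and every one of the 1450 control values was a whole-number combination of 2 steps, so the mean was resolved into 2 libraries, called A and B. Library A held 2615868 reads and library B held 2663279 reads. Whether they came from separate cultures is not given in the sources used here. The values chose the members, there is 1 control sample in the labels, and no test was made; the values of both libraries stand in place of an error. The libraries were alike for most miRNAs, but library A held more of the miR-320 family and library B more of the miR-17 and miR-16 families, and these values are given for each library below.

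A miRNA is cut from 1 arm of an RNA hairpin, named 5p or 3p for the end it lies nearest to, and is loaded into an Argonaute protein, while the opposite arm is mostly degraded. It recognizes target mRNAs chiefly through its seed, bases 2 to 8 from its 5′ end, and miRNAs with the same seed form a family with overlapping targets. In T cells, miRNAs are known to set the sensitivity of the T-cell receptor, the growth of activated cells and the choice of a helper fate.

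Sequences of mature miRNAs were taken from RefSeq (GRCh38.p14), where 946 of the 1078 members, holding 93.7% of the members' signal, had an entry. Seed families were summed and ranked over these 946 members only. The seeds of the families that held most of the signal are shown first, with each seed in capitals, because the profile was carried by a few seeds more than by many miRNAs. The largest family comprised 5 members that share the seed of miR-92a-3p, with loci on chromosomes 1, 7, 9, 13 and X.
miR-92a-3p: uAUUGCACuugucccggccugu
miR-25-3p: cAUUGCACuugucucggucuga
miR-363-3p: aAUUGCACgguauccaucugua
miR-92b-3p: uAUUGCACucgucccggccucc
miR-32-5p: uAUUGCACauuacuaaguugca
The second family was that of miR-181, of which the leading pair is shown.
miR-181a-5p: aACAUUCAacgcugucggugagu
miR-181b-5p: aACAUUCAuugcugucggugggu
The third was the let-7 family, shown by its 4 most abundant members, of which let-7a-5p and let-7f-5p differ at 1 of 22 positions.
let-7f-5p: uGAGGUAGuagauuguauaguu
let-7i-5p: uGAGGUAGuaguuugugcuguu
let-7a-5p: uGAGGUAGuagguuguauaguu
let-7g-5p: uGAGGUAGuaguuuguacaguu
The fourth was the miR-17 family, shown by the 3 members with the highest levels.
miR-93-5p: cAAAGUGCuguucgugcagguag
miR-20a-5p: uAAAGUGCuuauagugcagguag
miR-17-5p: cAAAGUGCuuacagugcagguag
Counted by name with miR-320a-3p, which had no entry, the miR-320 family would precede the next one, with 4.02% of the total against 3.62%. The fifth among members with an entry was the pair of miR-103a-3p and miR-107. These differ at 1 of 23 positions, so that reads with an error at that position cannot be told apart.
miR-103a-3p: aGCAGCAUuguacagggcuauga
miR-107: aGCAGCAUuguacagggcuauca
Of the next 2 families, each had 1 member, the abundant miR-191-5p and the lymphoblastic leukemia miRNA miR-128-3p.
miR-191-5p: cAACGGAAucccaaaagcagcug
miR-128-3p: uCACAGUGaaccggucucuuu

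The control profile was dominated by miR-92a-3p and miR-181a-5p, which together took 29.9% of the total. The 10 most abundant miRNAs took 54.9% of the total, 54.8% in library A and 55.3% in library B. Of the members, 8 were enough for 50% of the total, 74 for 90% and 224 for 99%. At the top, 2 members exceeded a mean of 100000, and 39 more lay between 10000 and 100000 and held 51.0% of the total. At the bottom, 496 members had a mean from 1 to below 10 and held 0.0862% of it. The median member had a mean of 13.2, against 4.91 over all miRNAs listed.

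**Figure D1:**
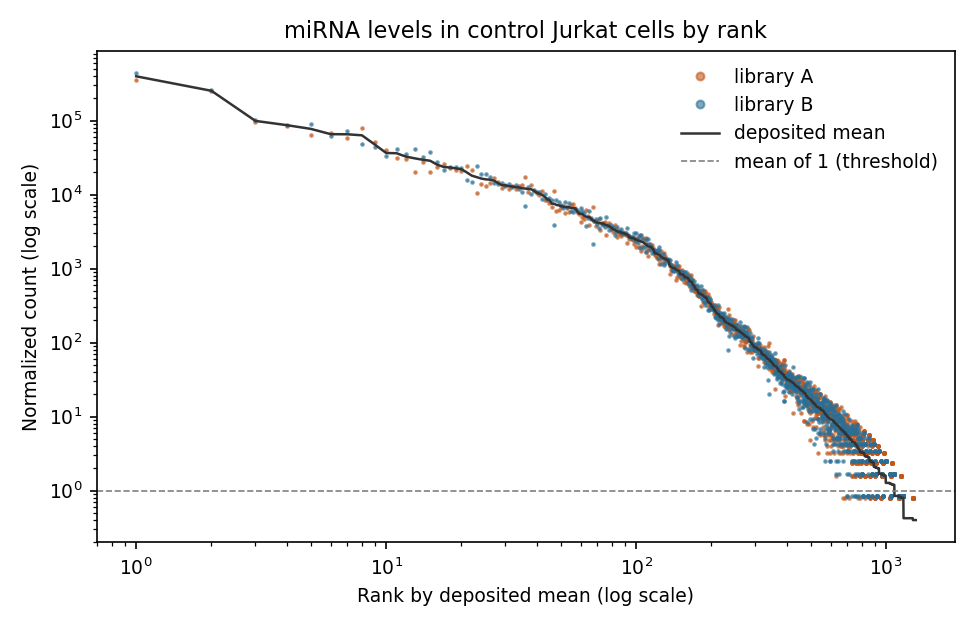
Normalized count (log scale) of each miRNA against its rank by the deposited control mean (log scale), with the mean as a line, libraries A and B as points and the threshold of 1 as a dashed line; values of 0 are not drawn. The line falls from 397933 at the first rank to 1 near rank 1078, and the points of both libraries spread more widely below a mean of 10.

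miR-92a-3p, the last miRNA of the growth-promoting miR-17-92 cluster, had 356235 normalized counts in library A and 439632 in library B. It was the most abundant miRNA in both libraries, with 17.01% of the reads of library A (exact 95% binomial interval 16.97% to 17.06%) and 19.5% of library B (19.41% to 19.5%). The libraries thus differed by more than counting error, which is all that such an interval covers. miR-181a-5p, which raises the sensitivity of developing mouse T cells to their antigen receptor, had 248273 and 258581 normalized counts in libraries A and B. It ranked next in both and took 11.9% and 11.4% of their reads.

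Below them, miR-25-3p, from an intron of the replication gene MCM7, had 96904 normalized counts in library A and 101676 in library B. miR-181b-5p, transcribed with miR-181a, had 85838 and 88321. let-7f-5p, of the family that restrains growth genes such as LIN28 and RAS, had 64631 and 90254. The first of these 3 held 4.56% of the control total and the last 3.56%.

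miR-191-5p, a broadly expressed miRNA from an intron of DALRD3, had 68896 normalized counts in library A and 62570 in library B. miR-103a-3p, hosted in pantothenate kinase genes, had 57598 and 73368. miR-320a-3p, whose short hairpin is made without the nuclear enzyme Drosha, had 78789 and 48072 and ranked 5 in library A and 8 in library B. miR-128-3p, known as a marker of lymphoblastic against myeloid leukemia, had 50938 and 44441, and miR-378a-3p, from an intron of the metabolic coactivator gene PPARGC1B, had 39704 and 33490. Each of these 5 held between 1.68% and 3.02% of the control total.

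The next 10 members each held between 1.02% and 1.67% of the total. They were miR-93-5p, let-7i-5p, miR-20a-5p, let-7a-5p, miR-17-5p, let-7g-5p, miR-423-3p, miR-363-3p, miR-26a-5p and miR-148a-3p. Of them, miR-20a-5p had 20209 normalized counts in library A and 41784 in library B, and miR-17-5p had 20264 and 37214, the widest gaps of the 10. miR-148a-3p, a miRNA that targets the DNA methyltransferase DNMT1, was nearly level, with 21216 and 22977. The libraries shared 9 of their 10 and 17 of their 20 most abundant miRNAs.

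**Figure D2:**
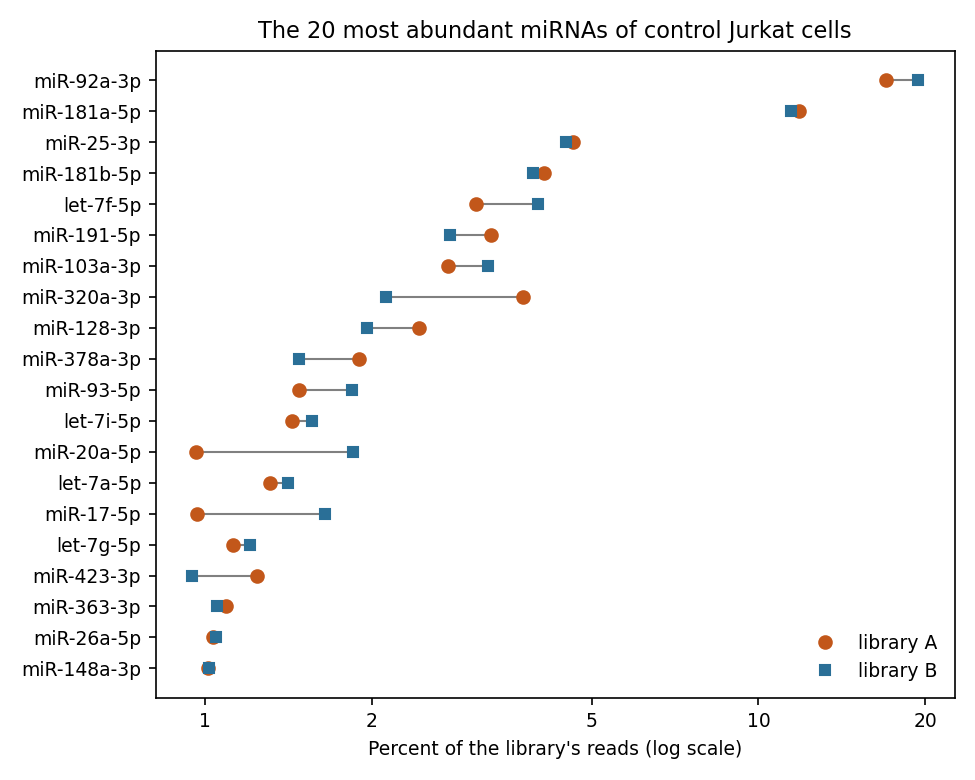
Percent of each library's reads (log scale) taken by the 20 most abundant miRNAs, in order of the deposited control mean, with library A as circles and library B as squares. miR-92a-3p and miR-181a-5p stand apart above 11%, and miR-320a-3p, miR-20a-5p and miR-17-5p show the widest gaps between libraries.

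The 946 members with a sequence fell into 797 seed families, of which 704 had 1 member and 7 had at least 5. As summed over these members, the 10 largest families held 67.6% of the control total and the 6 largest held 61.0%. The miR-92a seed family held 24.5% of the total, 23.4% in library A and 25.6% in library B. Within it, miR-92a-3p made up 74.6%, miR-25-3p 18.6%, miR-363-3p 4.37%, miR-92b-3p 2.35% and miR-32-5p 0.0558%. The lowest member, miR-32-5p, had 284 and 311 normalized counts in libraries A and B, although it carries the same seed.

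The miR-181 seed family held 15.9% of the total, 16.2% in library A and 15.6% in library B. miR-181a-5p made up 73.3% of it and miR-181b-5p 25.2%, while miR-181d-5p and miR-181c-5p, from a separate cluster on chromosome 19, had means of 3827 and 1486. The let-7 seed family had 10 members and held 8.83% of the total, and it was the most evenly filled of these 3. let-7f-5p made up 40.3% of it, and let-7a-5p and let-7g-5p made up 15.4% and 13.2%. Its rarer members let-7e-5p and let-7c-5p had means of 669 and 138.

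The miR-17 seed family, whose members target cell cycle brakes such as CDKN1A, held 4.02% of library A and 6.21% of library B. All 6 of its members were higher in library B. miR-93-5p, miR-20a-5p and miR-17-5p made up 32.3%, 27.6% and 25.6% of the family, and the means of miR-106b-5p, miR-20b-5p and miR-106a-5p were 6838, 5498 and 3893. The family of miR-103a-3p and miR-107 held 3.62% of the total. Of the remaining families among the 10 largest of members with an entry, that of miR-378a-3p had 7 members. Those of miR-26a-5p and miR-148a-3p had 2 and 3. The members without an entry, led by miR-320a-3p, miR-186-5p, miR-30d-5p and miR-425-5p, were placed in no seed family. The ranks below the fourth depend on these missing entries. Counted by name with miR-320a-3p, the miR-320 family held 4.02% of the total. The family of miR-30e-5p held 0.953% without miR-30d-5p, which alone held 0.663%. The families of miR-26a-5p and miR-148a-3p held 1.30% and 1.17%.

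**Figure D3:**
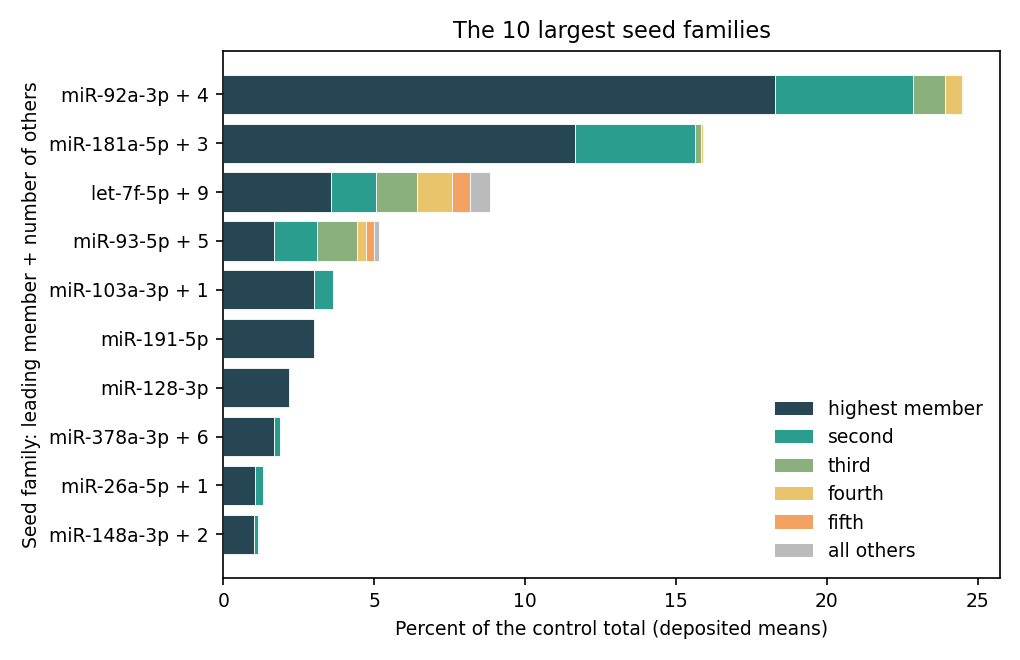
Percent of the control total held by the 10 largest seed families among the 946 members with a sequence. Each is named by its leading member and the number of others, with segments for single members in order of level. The miR-92a family reaches 24.5%, the miR-181 family 15.9% and the let-7 family 8.83%, and the let-7 bar is split more evenly than the other two.

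The loci of the leading families are given on GRCh38, where MIR92A1 occupies chromosome 13, 91351314 to 91351391 (plus strand), in an exon of the noncoding host gene MIR17HG. MIR92A2 occupies chromosome X, 134169538 to 134169612 (minus strand), in an exon of AC002407.1. MIR181A1 occupies chromosome 1, 198859044 to 198859153 (minus strand), in an intron of MIR181A1HG, and MIR181A2 occupies chromosome 9, 124692442 to 124692551 (plus strand), in an intron of MIR181A2HG. MIR25 occupies chromosome 7, 100093560 to 100093643 (minus strand), in an intron of MCM7, and MIR191 occupies chromosome 3, 49020618 to 49020709 (minus strand), in an intron of DALRD3. The hosts were read from GENCODE release 29.

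In all, 870 members had 1 locus in RefSeq and held 44.3% of the total, and 76 had several loci and held 49.4%. The 6 guides of the MIR17HG transcript, which are cut from 1 primary RNA, together held 21.5% of the total, which for miR-92a-3p and miR-19b-3p may include molecules of the chromosome X loci. Their levels were far apart, with means of 397933 for miR-92a-3p, 30996 for miR-20a-5p, 28739 for miR-17-5p, 7265 for miR-19b-3p, 2116 for miR-18a-5p and 1396 for miR-19a-3p. miR-92a-3p was 288-fold above miR-19a-3p in library A and 283-fold above it in library B. How evenly the sequences were captured in library preparation was not measured, so levels of different miRNAs are read counts and no copy numbers.

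Guides with several loci cannot be assigned to one of them, but the opposite arms of their hairpins often differ in sequence and carry a locus number. For miR-92a-3p, the opposite arm of the chromosome 13 locus, miR-92a-1-5p, had 1071 and 813 normalized counts in libraries A and B. That of the chromosome X locus, miR-92a-2-5p, had 42.4 and 26.3. The chromosome 13 arm thus made up 96.5% of both. The same split was seen for miR-19b-3p, with means of 48.5 for the chromosome 13 arm miR-19b-1-5p and 0.424 for the chromosome X arm miR-19b-2-5p.

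For miR-181a-5p, the chromosome 1 arm miR-181a-3p had 3890 and 2873 normalized counts in libraries A and B, and the chromosome 9 arm miR-181a-2-3p had 636 and 574, so chromosome 1 made up 84.8% of both. For miR-181b-5p it made up 94.1%. For miR-16-5p, of the family that targets the survival gene BCL2, the chromosome 3 arm miR-16-2-3p had a mean of 1417 and the chromosome 13 arm miR-16-1-3p of 141. miR-29b-3p, which targets collagens and DNA methyltransferases, had 833 for the chromosome 1 arm miR-29b-2-5p and 15.4 for the chromosome 7 arm miR-29b-1-5p. The split was milder for miR-128-3p, with 199 for miR-128-1-5p on chromosome 2 and 118 for miR-128-2-5p on chromosome 3. An opposite arm counts its own molecules, and its ratio to the guide need not be equal at every locus.

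Both arms of the hairpin were listed for 426 stems, taking loci of 1 name together, and 294 of these had at least 10 normalized counts over both arms and held 93.8% of the control total. The 5p arm led in 151 pairs and the 3p arm in 143, and the 5p arms held 50.4% of the signal of these pairs. By number of pairs, neither arm was thus favored. The near balance of signal rested on miR-92a-3p, a 3p arm that alone held 18.3% of the total. Single hairpins were strongly one-sided. One arm held over 90% in 164 of the 294 pairs (55.8%), and the minor arms held 4.53% of the signal. Of the 172 pairs with at least 100 normalized counts, 115 had over 90% on 1 arm and 48 over 99%, with a median of 96.4% on the leading arm.

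The pairs with the largest 5p lead were miR-146a, miR-450b, miR-186, miR-1296 and miR-182. miR-146a-5p, a brake on NF-κB signaling, had 1739 and 1415 normalized counts in libraries A and B and miR-146a-3p had 0 reads in both, which allows it up to 0.0784% of the pair (3 reads over both libraries). miR-186-5p had a mean of 15461 and miR-186-3p of 3.23. The pairs with the largest 3p lead were miR-10395, miR-3187, miR-320a, miR-103a and miR-101. miR-320a-3p had a mean of 63431 against 6.57 for miR-320a-5p, and miR-103a-3p had 65483 against 22.5 for its 5p arms.

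A few abundant hairpins gave both arms at nearly the same level. miR-423, in an exon of the gene NSRP1 on chromosome 17, had 24042 and 16036 normalized counts of the 5p arm in libraries A and B and 25978 and 21428 of the 3p arm. Its arms, the most abundant pair near balance, carry unrelated seeds.
miR-423-5p: uGAGGGGCagagagcgagacuuu
miR-423-3p: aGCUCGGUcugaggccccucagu
miR-106b, from the MCM7 intron, had means of 6838 for the 5p arm and 6794 for the 3p arm, and miR-18a of the MIR17HG cluster had 2116 and 1978. miR-671 had 413 and 421, and miR-1273h had 121 and 110. In miR-106b, miR-18a, miR-671 and miR-1273h the 3p arm led in library A and the 5p arm in library B. Over all 294 pairs the leading arm differed between libraries in 14, leaving out ties, and 12 of these lay within 2-fold in the mean. miR-142, made almost only in blood cells, was also shared between arms, with 70.4% on the 5p arm (73.5% in library A and 68.1% in library B).

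**Figure D4:**
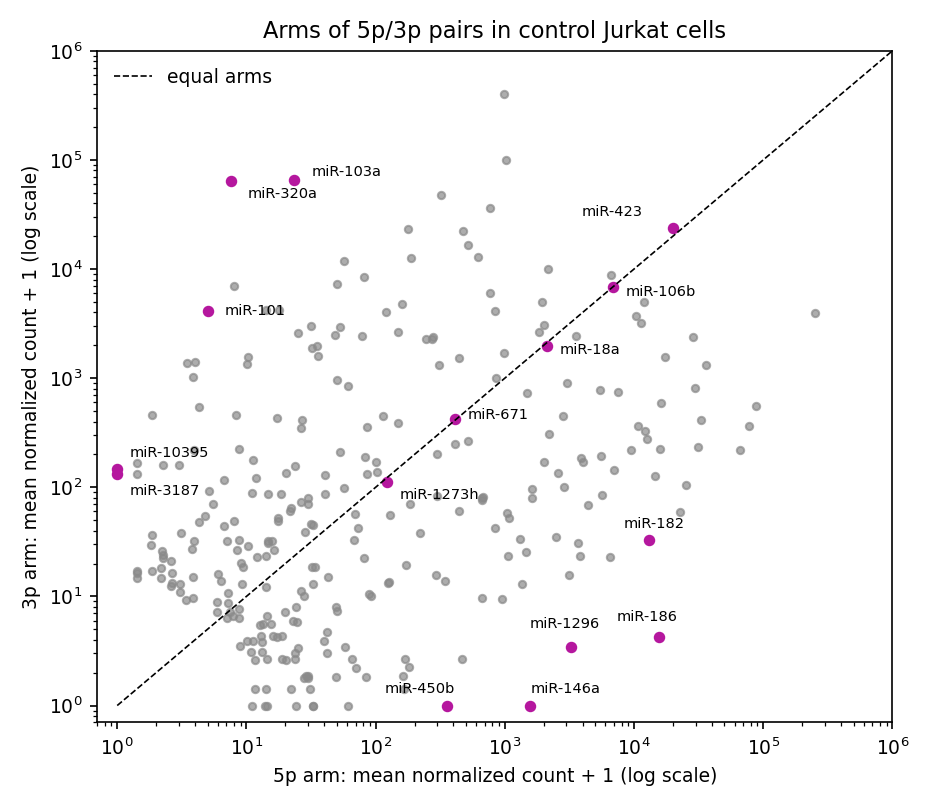
Mean normalized count plus 1 of the 3p arm against that of the 5p arm (log scales) for 294 pairs with at least 10 normalized counts, with equal arms as a dashed line and the 15 pairs of the text named. Points lie on both sides of the line in near equal number, and most abundant pairs lie far from it.

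The members were also described by features the threshold did not use. A 5′ uridine, the base that Argonaute proteins bind best, was the first base of 39.7% of the 946 members with a sequence, against 40.7% of the 339 listed miRNAs below the threshold. Among the 100 highest ranks, 91 had a sequence and 50.5% of these began with U, against 39.0%, 36.2% and 39.9% in 3 successive lower bands of rank. Weighted by level, U began 51.0% of the members' signal, A 32.0%, C 15.6% and G 1.44%. The U share was 49.1% in library A and 52.7% in library B, and it was 39.1% when miR-92a-3p was left out. G was the rarest first base and began 11.8% of the members.

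The leading arm of a pair began with U more often than its partner. In the 218 pairs with 1 entry and a sequence for each arm, 50.9% of leading arms and 22.5% of minor arms began with U. In 86 pairs U stood on the leading arm only and in 24 on the minor arm only. Lengths of 21 to 23 nucleotides held 83.8% of the members and 94.7% of their signal, and the median length was 22 nucleotides. The median GC content was 47.6% in the 100 highest ranks, against 52.4%, 52.2% and 54.5% in the 3 lower bands of rank.

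MiRNAs of T lymphocytes were abundant in the control cells. Of 8 markers of the T lineage, all 8 were members, 7 had a mean of at least 1000, and together they held 17.3% of the total, most of it miR-181a-5p. By comparison, 74.3% of all miRNAs listed were members, and 143 of all 1078 members had a mean of at least 1000. A list of 8 leukocyte miRNAs, which shares 6 of these markers and has miR-21-5p and miR-146b-5p in place of miR-181a-5p and miR-181b-5p, held 2.48% of the total. The 6 shared miRNAs do not set T cells apart from other leukocytes. miR-342-3p, from an intron of the leukocyte gene EVL, had 14056 and 19009 normalized counts in libraries A and B. miR-142-5p and miR-142-3p had means of 11877 and 4982. miR-150-5p, a miRNA of resting mature lymphocytes that targets MYB, had 1858 and 2174.

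The exception was miR-155-5p, which is induced when T cells are activated, with 3.20 and 11.0 normalized counts in libraries A and B (4 and 13 reads). Other miRNAs tied to activation were not low. miR-146a-5p and miR-146b-5p had means of 1577 and 1048, and miR-21-5p, raised in activated cells and in many tumors, had 15934. Of 12 miRNAs of clusters with known parts in T helper expansion and activation, 10 had a mean of at least 1000. Of all 1078 members 143 did, and members numbered up to 500, like these 12, had a median mean of 169. miR-182-5p, which targets FOXO1 and aids the growth of T helper cells, had 12103 and 13905 normalized counts in libraries A and B, and its cluster partners miR-183-5p and miR-96-5p had means of 12185 and 1365. miR-221-3p had 13626 and 10094, and miR-212-3p was the lowest of the list at 31.0.

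Families with known parts in lymphocyte growth and survival were present throughout. All 13 guides of the miR-17-92 cluster and its paralogs were members, as were 84.4% of the listed miRNAs numbered up to 500. These guides held 29.6% of the total, 27.2% in library A and 31.8% in library B. miR-18b-5p, from chromosome X, was the lowest of them with a mean of 129. The 7 members of the miR-15/16 family held 1.05%, 0.708% in library A and 1.36% in library B. Most of this was miR-16-5p, with 10484 and 24095 normalized counts. miR-195-5p, of the same family, had 3.20 and 23.8. The miR-29 and miR-26 families, which restrain DNA methyltransferases and EZH2, held 1.94% with 5 of 5 members at a mean of at least 1000, against 143 of all 1078 members.

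Among miRNAs that promoted T-cell acute lymphoblastic leukemia (T-ALL) in mouse models, all 5 had a mean of at least 1000, and they held 21.3% of the total. These were miR-92a-3p, miR-20a-5p, miR-26a-5p, miR-19b-3p and miR-223-3p, and miR-92a-3p alone held 18.3%. miR-223-3p, better known from granulocytes, had 4672 and 4845 normalized counts in libraries A and B. Of 9 miRNAs that restrained T-ALL in mice, 8 were members and 4 had a mean of at least 1000. Among all listed miRNAs numbered up to 500, 84.4% were members, and these members had a median mean of 169. Of all 1078 members, 143 had a mean of at least 1000. The difference between the 2 short T-ALL lists was not tested. The highest of the 9 were miR-29a-3p and miR-29c-3p with means of 6920 and 6006. miR-31-5p had 0 and 1 read in libraries A and B and lay below the threshold.

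Other leukemia miRNAs covered a wide range. miR-128-3p was the highest of 11 with a mean of 47689, followed by miR-221-3p and miR-222-3p. miR-196a-5p and miR-10a-5p, from the HOX clusters, had 1614 and 165. miR-10b-5p, from the HOXD cluster, had 20 reads in library A and 3 in library B. Its direction in the study's text is what puts the column labels of all miRNAs in doubt. miR-125b-5p and miR-100-5p, which are high in other acute leukemias, had means of 19.3 and 5.80. miR-34a-5p, a p53 target gene, had 4.92, and miR-196b-5p, linked to HOXA-driven leukemia, had 2.85.

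MiRNAs that mark other cell types took a small share of the total, but most of their lists were not below the typical miRNA of the table. Of 82 such markers in 10 lists, 66 were listed and 40 were members, 19 had 0 reads in both control libraries, and together they held 0.868% of the total (0.847% in library A and 0.887% in library B). A count of 0 allows up to 1.24 normalized counts, from 3 reads over both libraries. The median over the 66 was 2.29, against 4.91 over all miRNAs listed, and 27 of the 66 belong to the pluripotent, placental and imprinted clusters, whose median was 0. The 39 markers of the remaining 7 lists had a median of 26.8, and all 7 lists had a median above 4.91. Among these, the median was 672 in the list of liver, gut and kidney, 184 in the myeloid and endothelial list, 34.4 in the neuronal list and 6.92 in that of heart and skeletal muscle. The markers of these 7 lists are all numbered up to 500, and members so numbered had a median mean of 169. Only the liver, gut and kidney list and the myeloid and endothelial list had a median above that. Only 4 of the 66 markers had a mean of at least 1000, namely miR-9-5p, miR-223-3p, miR-192-5p and miR-194-5p. miR-9-5p, best known from neurons, had 6738 and 8370 normalized counts in libraries A and B, while neuronal miR-124-3p had 0 and 1 read, and the 8 neuronal miRNAs together held 0.360%. miR-192-5p, of gut, liver and kidney and a p53 target gene, had 2981 and 3262, while the liver miRNA miR-122-5p had a mean of 30.01.

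The 4 myeloid and endothelial miRNAs held 0.238% of the total, nearly all of it miR-223-3p, and the endothelial miR-126-3p had a mean of 209. Of 5 erythroid miRNAs, miR-451a was the highest with 75.2 and 60.2 normalized counts in libraries A and B, and miR-486-3p had 0 reads. Of 5 listed miRNAs of heart and skeletal muscle, miR-499a-5p was the highest with 27.2 and 26.3, and miR-206 and miR-133b had 0 reads. miR-1-3p had 24 reads in library A and 3 in library B. Of 5 miRNAs of smooth muscle and fibroblasts, miR-199a-3p was the highest with a mean of 86.3. Its sequence is shared with miR-199b-3p, which is listed with the same reads, so these cannot be told apart.

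Of 8 epithelial miRNAs, all were members, against 84.4% of the listed miRNAs numbered up to 500. miR-200c-3p was the highest with 735 and 771 normalized counts in libraries A and B, and miR-429 the lowest with a mean of 1.70. Clusters of early development were close to silent. Of 4 listed miRNAs of pluripotent stem cells, none was a member and miR-302d-3p had 1 read in all. Of 4 listed miRNAs of the placental cluster on chromosome 19, 2 were members, the highest being miR-520a-3p with a mean of 2.10. Of 19 listed miRNAs of the imprinted DLK1-DIO3 cluster, 4 were members, 12 had 0 reads, and miR-127-3p was the highest with 5.30. The markers without a row are not analysed here.

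**Figure D5:**
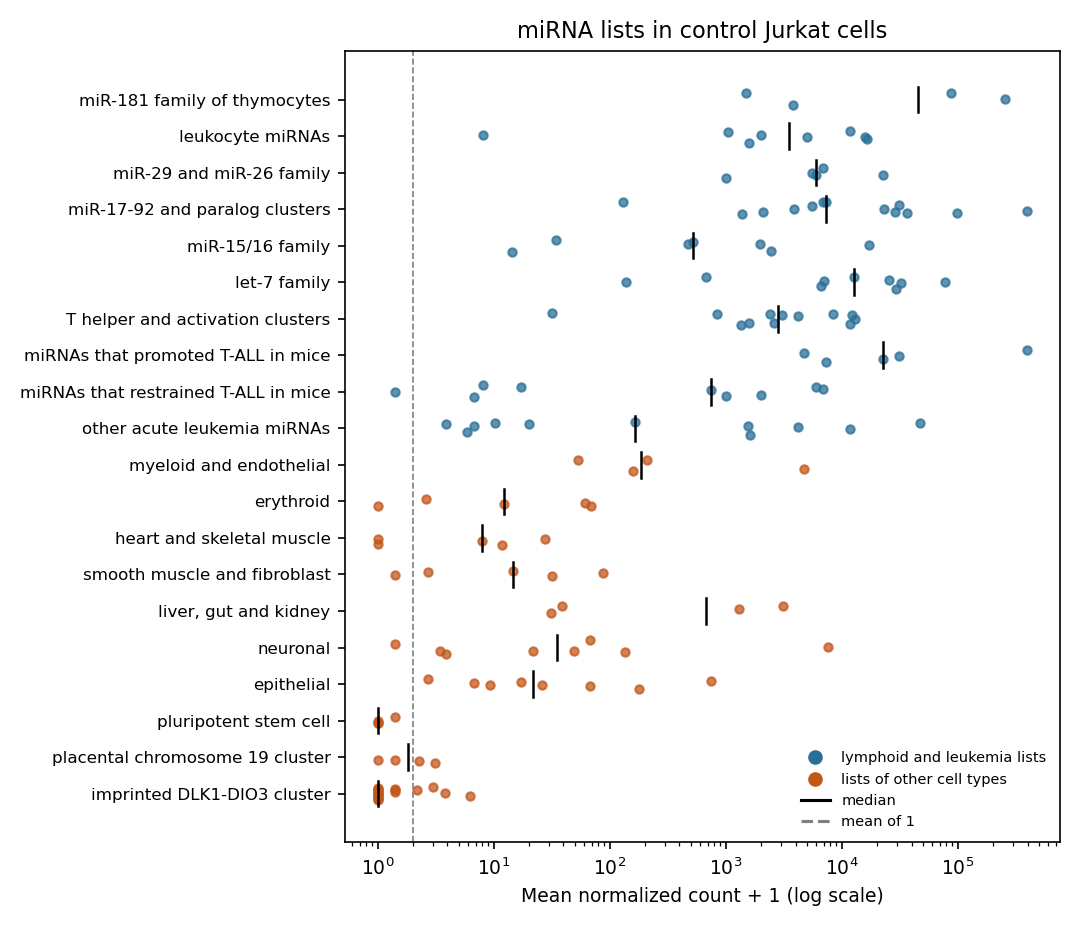
Mean normalized count plus 1 (log scale) of the listed miRNAs of 20 lists in control Jurkat cells, with lymphoid and leukemia lists in blue, lists of other cell types in orange, list medians as black bars and a mean of 1 as a dashed line. miRNAs of the miR-181, miR-17-92 and let-7 lists lie mostly above 1000, and the pluripotent, placental and imprinted clusters lie near or below a mean of 1.

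The libraries were closer for abundant miRNAs than for rare ones. Over the 287 members with a mean of at least 100, Pearson's r between libraries was 0.986 (log2 scale, pseudocount 1) and Spearman's rho was 0.980. Over all 1078 members they were 0.958 and 0.898. The points of these correlations are miRNAs of 1 pair of libraries and do not replicate each other. Of the 287, 245 (85.4%) lay within 1.5-fold and 7 (2.44%) differed by over 2-fold. Of the 496 members with a mean below 10, 319 (64.3%) differed by over 2-fold, and 136 had reads in 1 library only.

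Of the 7 miRNAs that differed by over 2-fold, 4 were higher in library A and 3 in library B. miR-320b, miR-320c and miR-320d had 17207, 11131 and 6847 normalized counts in library A and 7034, 3943 and 2141 in library B. The 5 members of the miR-320 family held 5.44% of the reads of library A and 2.71% of library B, and all 5 were higher in library A. miR-3960 was also higher there, with 285 and 80.6. miR-16-5p, miR-20a-5p and miR-652-5p were higher in library B. The next widest gap toward library A was that of miR-3173-5p, with 164 and 84.0 normalized counts in libraries A and B. Toward library B the next were miR-16-1-3p, with 94.5 and 188, and miR-664a-3p, with 88.1 and 169.

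The base composition of the miRNAs moved with the library. In the third of abundant members with the lowest GC content (22.2% to 45.5%), 74 of 94 were higher in library B, with a median log2 ratio of B to A of 0.19. In the third with the highest GC content (57.1% to 88.9%), 36 of 84 were, with a median of −0.06. The part of base composition in the gaps of the miR-320, miR-17 and miR-16 families was not tested.

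At the threshold of 1, the members with the lowest values included miR-1277-5p, miR-6759-5p and miR-1343-5p, each with a mean of 1.201 from 3 reads in library A and none in library B. The highest values outside included those of miR-548al, miR-6861-5p and miR-3917, each with a mean of 0.848 from 2 reads in library B. Below the threshold lay 236 miRNAs with reads in control, which held 0.00631% of the total, and 136 with 0 reads.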

How the data were processed

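Small RNA sequencing of Jurkat cells was deposited as 1 table for 1 control and 1 PELATON overexpression sample. The paper's methods name a small RNA library kit and the sample labels an mRNA kit. The authors counted reads per mature miRNA and divided them by library size factors, and the deposited signal is the mean of each group. The submitters' processing notes name the build GRCh38.p14. The aligner, trimming and miRNA annotation are not given in the sources used here. The fold change in the table is headed C1 over S1, and the control column was taken from the sample description. The columns of the authors' own comparison (fold change, p-values) were not used.

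Reads of the libraries behind the control mean were recovered as whole-number combinations of 2 steps (relative tolerance 1e-12, absolute tolerance 1e-09), for 100% of 1450 values, with size factors of 1.25 and 1.18. The recovery was tested on simulated data. Shares are percentages of the control total over all 1450 miRNAs. Entries with 1 shared sequence had the same reads in 3 of 4 sets, so such reads were counted more than once. In all, 72 members, with 21.2% of the total, lay within 1 mismatch of another listed miRNA, where reads with an error may be misassigned. Seeds, loci and lengths came from RefSeq; pairs of arms were matched by name.

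The text names the 20 highest members, the leading and zero members of 20 lists, the largest families, the most and least one-sided pairs with at least 100 normalized counts, the members with the widest gap between libraries, and those at the threshold; other members were named after their values were seen. The members and lists were chosen with earlier results of these data known. Alternatives were single libraries, summed reads, other thresholds and leaving out miR-92a-3p. Python 3.11.15, pandas 2.3.3 and scipy 1.17.1 were used.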

Additional observations from a re-analysis of the deposited data

How the results depend on the processing

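No paired analysis was possible because the control group has 1 sample and was compared with no other. Of 35 alternative values of 6 results, 24 moved by less than the spread between the libraries, or for counts by less than 1.5-fold, and 11 moved by more. The number of members was 582 at a mean of at least 10. The percentage in the 10 most abundant miRNAs was 55.3 in library B alone and 46.8 without the most abundant miRNA, against 54.9. Without it the largest seed family was that of miR-181, with 19.4% of the total, and U began 39.1% of the signal. The 5p arm led in 50.9% of pairs in library A alone, 50.2% in library B alone, 50.2% with both arms above 0, 50.3% with arms of at least 10 each, 50.6% at 100 over both arms and 52.5% of pairs with a 2-fold lead, against 51.4%. Intervals and the limit for a count of 0 cover counting error only.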

Other observations

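The levels followed the miRNA numbers, which were given in order of discovery. Among the miRNAs numbered up to 500 with the let-7 family, 347 of 411 listed were members, with a median mean of 169, and they held 93.3% of the control total. Among those numbered above 4000, 359 of 539 were members, with a median of 4.17, and they held 0.980%. The highest of these was miR-4454 with 4752 and 5617 normalized counts in libraries A and B. Above 1000 and up to 2000 the highest was miR-1246, with 21516 and 14671 normalized counts, and above 2000 and up to 4000 it was miR-3615, with 7434 and 5743.

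Some abundant miRNAs stood in none of the lists. miR-7-5p, which targets growth factor receptor signaling, had 13293 and 18948 normalized counts in libraries A and B. Of its listed opposite arms, miR-7-1-3p of chromosome 9 had a mean of 592 and miR-7-2-3p of chromosome 15 one of 0.848. A locus without a listed opposite arm is not covered by these values. miR-186-5p, miR-484 and miR-185-5p had means of 15461, 13384 and 10662, and their libraries differed by less than 1.5-fold.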
